A study of Mus musculus with 12 samples.

Results

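The 34 genes described here are markers of the oligodendrocyte lineage and of myelin, out of 54532 genes measured in total RNA of the mouse hippocampus. They were chosen by name: 5 markers of oligodendrocyte precursors, 5 transcription factors of the lineage and 24 markers of mature, myelin-forming oligodendrocytes. The libraries came from 3-month-old mice and fall into 4 groups of 3: Atrx conditional knockout (cKO) males, control males, Atrx-cKO females and control females. The series' title places the Atrx deletion in neurons. The sources used here do not give the Cre driver, the deleted exons or the alleles of the controls. The labels call the sample type hippocampal cells while the design text speaks of RNA of the hippocampus from 3 pairs of mice per sex. They do not state that each library is 1 mouse or which libraries form a pair, so p-values measure the spread between these libraries.

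Oligodendrocytes wrap axons of the central nervous system in myelin, a stack of membrane rich in cholesterol and galactolipids and held together by a small set of abundant proteins. They arise from proliferating precursors that persist in the adult brain, pass through a short-lived committed stage marked by Gpr17 and then switch on the myelin genes under the control of SOX10, MYRF and other factors. In the hippocampus, myelinated fibres run mainly in the alveus and fimbria and in the deeper layers around the pyramidal cells. In bulk RNA, fewer cells of a type and less RNA per cell cannot be told apart.

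Levels are given in fragments per unit of exon length and of library size (FPKM), recomputed per gene over the union of its exons. Mapped sequence ran from 1.16 to 8.64 Gb per library. Genes for olfactory and vomeronasal receptors, which hippocampus is not known to use, had a median level, called background here, of 0.0205, 0.286 and 0.0178 FPKM in cKO males 1 to 3 and 0.0276, 0.0128 and 0.00664 FPKM in control males. The background was 0.305, 1.97 and 2.25 FPKM in cKO females and 0.180, 0.0863 and 0.602 FPKM in control females. It was therefore higher in every control female than in any control male, and highest in cKO females 2 and 3. Unless stated otherwise, values have the background of their library taken off, are then divided by a scaling factor of the library and are called subtracted FPKM. The factor was 0.664 in cKO female 2 and 0.639 in cKO female 3, which raises their values, and 1.02 to 1.15 in the other libraries. Atrx itself had 32.3 to 36.5 deposited FPKM in cKO males against 40.2 to 46.9 FPKM in control males, and 31.0 to 38.2 FPKM in cKO females against 55.6 to 63.6 FPKM in control females (exact two-sided permutation p = 0.1 within each sex and 0.005 over both, the smallest these designs allow).

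Of the 34 genes, 33 passed the filter on low values and were tested among 15087 genes with limma on log2(subtracted FPKM + 0.5), so a log2 change understates the ratio of a low gene. Cspg4, the proteoglycan NG2 of precursors, did not pass. It had 0.610, 0.519 and 0.513 subtracted FPKM in cKO males, 0.821, 0.632 and 0.488 in control males, 0.827, 0 and 0 in cKO females and 0.873, 0.868 and 0.613 in control females. A total of 18 of the 34 genes overlap another annotated gene, and the sources used here do not give the use of strand, so their reads could not be divided with certainty.

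The comparison of cKO with control asked whether deletion of Atrx moved the lineage. No member passed the threshold in either sex. In males, limma called 0 of 33 members at an adjusted p under 0.05, where 0.00663 percent of all genes tested were called. At an unadjusted p under 0.05 there were 0 members, against 2.33 percent of all genes. In females it also called 0 of 33, against 0.0729 percent of all genes, and 4 members, all with lower fitted values in cKO, had an unadjusted p under 0.05 (29.4 percent of all genes did). The 24 mature markers had a median log2 change of 0.033 in males and -0.099 in females, where all genes tested had 0.031 in males and 0.016 in females. The 4 tested precursor markers had medians of -0.056 in males and -0.11 in females. Averaged over the sexes, 0 members were called (0.0331 percent of all genes), and the difference between the male and the female effect called 0 (0 percent of all genes). At an unadjusted p under 0.05 there were 0 members in both, against 20.4 and 6.24 percent of all genes.

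The intervals limit the size of a change. The 95% interval of the log2 change lay within -1 and 1 for 27 of 33 members in males and 26 of 33 in females. It lay within -0.5 and 0.5 for 7 of 33 members in each sex, so for most of them a smaller change could not be told from none at this spread.

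**Figure D1:**
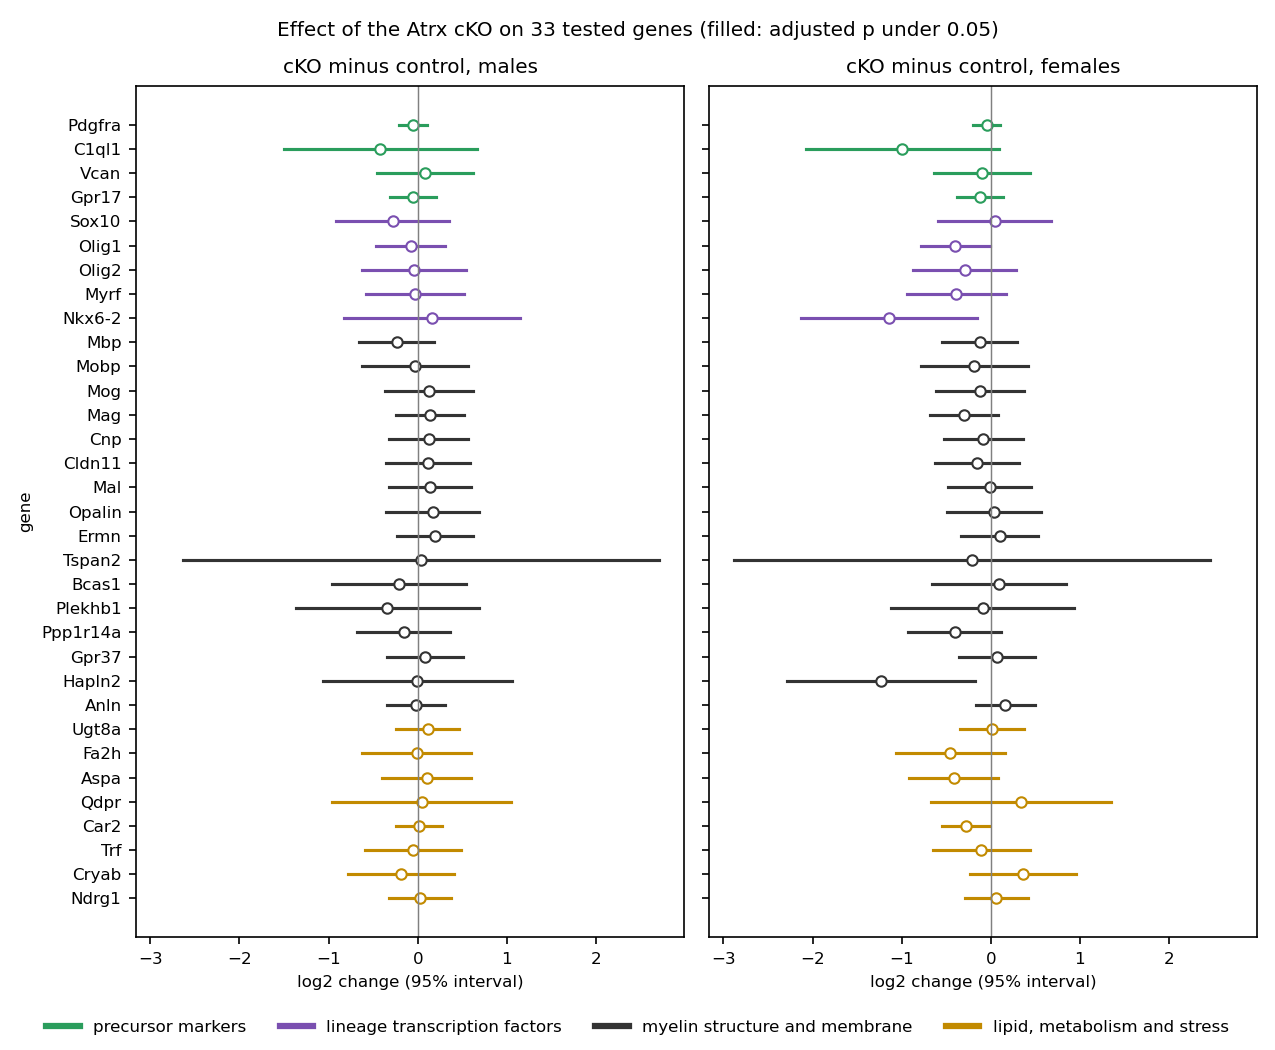
Log2 change of cKO against control with its 95% interval for the 33 tested members, in males on the left and females on the right, coloured by role. Every point is open because 0 members reached an adjusted p under 0.05, and the widest intervals belong to Tspan2.

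For most precursor markers the genotypes overlapped. Pdgfra, the receptor through which platelet-derived growth factor drives precursor proliferation, had 7.20, 7.55 and 6.72 subtracted FPKM in cKO males, 7.75, 7.31 and 7.29 in control males, 7.84, 7.46 and 7.86 in cKO females and 8.21, 8.04 and 7.71 in control females. All 12 libraries lay between 6.72 and 8.21 subtracted FPKM, and the genotypes overlapped in both sexes. The log2 change of Pdgfra was -0.055 in males (95% interval -0.21 to 0.10, adjusted p = 1, limma) and -0.046 in females (-0.20 to 0.11, adjusted p = 0.688).

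Gpr17, an orphan receptor of committed precursors, had 7.85, 7.12 and 6.36 subtracted FPKM in cKO males, 8.49, 7.77 and 6.11 in control males, 7.04, 7.37 and 7.30 in cKO females and 8.42, 7.57 and 7.75 in control females. The 3 cKO females lay below the 3 control females, while cKO and control males overlapped. The log2 change was -0.057 in males (-0.31 to 0.20) and -0.12 in females (-0.38 to 0.14, adjusted p = 0.509). Gpr17 lies inside Lims2, which was not separated from it.

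Vcan, the proteoglycan versican, had 1.88, 2.00 and 1.53 subtracted FPKM in cKO males, 1.72, 1.58 and 1.68 in control males, 2.15, 2.62 and 0.997 in cKO females and 2.10, 1.83 and 2.03 in control females. Its lowest and its highest values were both found in cKO females, in libraries 3 and 2. C1ql1, a secreted protein related to complement C1q, had 1.58, 0.984 and 0.567 subtracted FPKM in cKO males, 1.73, 1.49 and 1.27 in control males, 1.38, 0 and 0 in cKO females and 1.22, 0.900 and 1.04 in control females. It was at 0 in cKO females 2 and 3, whose background of 1.97 and 2.25 exceeds its level in every other library, so its log2 change in females of -0.99 (-2.08 to 0.089, adjusted p = 0.200) rests on these values.

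The transcription factors gave the same picture of overlapping groups. Olig1 and Olig2 are paired basic helix-loop-helix factors that specify the lineage. Olig1 had 6.23, 4.78 and 5.18 subtracted FPKM in cKO males, 6.06, 5.52 and 5.53 in control males, 5.05, 4.89 and 3.17 in cKO females and 6.82, 6.10 and 4.71 in control females. cKO female 3 was the lowest of all 12 libraries, and control female 3 lay among the cKO females. Its log2 change was -0.079 in males and -0.40 in females (-0.79 to -0.011, adjusted p = 0.162). Olig2 had 6.75, 5.38 and 4.92 subtracted FPKM in cKO males, 6.87, 6.90 and 4.10 in control males, 5.11, 4.23 and 2.42 in cKO females and 5.35, 5.27 and 3.73 in control females. Here too cKO female 3 was lowest, and each pair of genotypes overlapped.

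Sox10, which activates myelin genes directly, had 2.22, 2.85 and 3.90 subtracted FPKM in cKO males, 3.24, 3.71 and 4.09 in control males, 1.53, 3.11 and 3.27 in cKO females and 3.51, 2.46 and 1.64 in control females. The genotypes overlapped in both sexes, with log2 changes of -0.28 in males and 0.042 in females. Myrf, the membrane-bound factor that holds mature oligodendrocytes in the myelinating state, had 1.58, 1.19 and 1.17 subtracted FPKM in cKO males, 1.52, 1.48 and 1.07 in control males, 1.22, 1.11 and 0.582 in cKO females and 1.78, 1.30 and 1.12 in control females. Its log2 changes were -0.032 in males (-0.58 to 0.52) and -0.39 in females (-0.94 to 0.17). Nkx6-2, a homeobox factor of mature oligodendrocytes, had 2.83, 1.28 and 2.64 subtracted FPKM in cKO males, 1.66, 2.15 and 1.84 in control males, 1.19, 0.189 and 0 in cKO females and 2.12, 1.34 and 0.808 in control females. The log2 change in females was -1.14 (-2.13 to -0.16, adjusted p = 0.131), and it rests on cKO females 2 and 3, which were near or at 0 after subtraction.

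Among mature markers, Car2 and Hapln2 had an unadjusted p under 0.05 in females. Car2, the cytosolic carbonic anhydrase of oligodendrocytes, had 68.6, 52.3 and 65.0 subtracted FPKM in cKO males, 56.3, 63.1 and 63.7 in control males, 39.9, 32.3 and 34.3 in cKO females and 42.8, 40.3 and 46.7 in control females. The 3 cKO females lay below the 3 control females, and the male genotypes overlapped. The means were 62.0 ± 8.58 in cKO males against 61.0 ± 4.09 in control males, and 35.5 ± 3.96 in cKO females against 43.3 ± 3.25 in control females (SD, n = 3 each). The log2 change was 0.014 in males (-0.24 to 0.27) and -0.28 in females (-0.54 to -0.025, adjusted p = 0.145, limma), so it did not pass.

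Hapln2, a link protein of the matrix at nodes of Ranvier, had 4.54, 2.71 and 4.15 subtracted FPKM in cKO males, 3.86, 3.85 and 3.53 in control males, 2.47, 0.158 and 0.182 in cKO females and 2.60, 2.04 and 1.69 in control females. cKO females 2 and 3 were close to 0 while cKO female 1 lay within the controls, and the log2 change in females was -1.23 (-2.29 to -0.17, adjusted p = 0.131). Aspa, the enzyme that splits N-acetylaspartate for lipid synthesis, had 3.38, 3.01 and 4.60 subtracted FPKM in cKO males, 3.45, 3.16 and 3.37 in control males, 1.86, 1.05 and 0.895 in cKO females and 2.34, 1.62 and 1.51 in control females. Fa2h, the hydroxylase of myelin galactolipids, had 2.28, 1.59 and 1.93 subtracted FPKM in cKO males, 1.83, 2.42 and 1.64 in control males, 1.99, 1.32 and 0.648 in cKO females and 2.16, 2.09 and 1.44 in control females. Both had lower values in cKO females 2 and 3 than in any control female, while cKO female 1 overlapped the controls; the log2 changes in females were -0.41 and -0.45 (adjusted p = 0.239 and 0.290).

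Mag, the adhesion protein of the inner myelin layer that faces the axon, had 12.4, 9.39 and 11.6 subtracted FPKM in cKO males, 9.50, 11.4 and 9.18 in control males, 9.70, 7.49 and 6.42 in cKO females and 11.7, 9.49 and 8.10 in control females. Ppp1r14a, an inhibitor of myosin phosphatase, had 6.29, 4.47 and 6.76 subtracted FPKM in cKO males, 6.01, 7.64 and 5.94 in control males, 4.57, 2.98 and 2.07 in cKO females and 4.88, 4.28 and 3.58 in control females. In both genes cKO female 3 was the lowest of the 12 libraries, and the genotypes overlapped in each sex. Anln, an actin-binding scaffold of the septin cytoskeleton in myelin, had 12.5, 7.97 and 10.4 subtracted FPKM in cKO males, 9.71, 11.8 and 9.49 in control males, 6.73, 8.10 and 6.50 in cKO females and 6.29, 6.11 and 6.39 in control females. The 3 cKO females lay above the 3 control females by a small margin (log2 0.16, -0.16 to 0.49, adjusted p = 0.474).

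In females, groups that did not overlap were thus found for 1 member with higher cKO values and 2 members with lower cKO values, where 10.2 and 7.49 percent of all genes did so. In males they were found for 0 members in either direction, where 7.44 and 4.66 percent of all genes did so. The result in females depended on 1 library. Without cKO female 1, which leaves the pair of libraries of highest background, 6 members were called lower in cKO females: Hapln2 (log2 -1.94, adjusted p = 0.000233), Nkx6-2 (-1.65, 0.00456), Aspa (-0.64, 0.0257), Ppp1r14a (-0.66, 0.0294), Car2 (-0.37, 0.0363) and Fa2h (-0.71, 0.0439). Except for Car2, these genes averaged under 5 subtracted FPKM in control females. In that fit 16.3 percent of all genes were called lower and 22.4 percent higher, so the share of members called lower was close to that of all genes.

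Other genes of the lineage were read from lists of genes that are not members. No gene of the 7 lists was called by limma in cKO against control in either sex. Of 103 genes tested, 2 in males had an unadjusted p under 0.05, where 2.33 percent of all genes did. In females 12 of them did, where 29.4 percent of all genes did. The thyroid hormone receptor gene Thra, from the list of signals to the lineage, had 55.8 ± 3.95 subtracted FPKM in cKO males against 67.4 ± 3.10 in control males, and 52.2 ± 5.71 in cKO females against 63.5 ± 4.44 in control females (SD, n = 3 each). In each sex its groups did not overlap, with cKO lower. The same held for 4.66 percent of all genes in males and 7.49 percent in females. The log2 change of Thra was -0.27 in males and -0.28 in females (limma, adjusted p = 1 and 0.115). Pllp, the tetraspan myelin protein plasmolipin, had 5.32 ± 1.12 in cKO males against 5.23 ± 0.903 in control males and 1.39 ± 1.26 in cKO females against 3.57 ± 0.638 in control females (adjusted p = 1 and 0.114). Enpp6, an enzyme of newly formed oligodendrocytes, had log2 changes of -0.57 in males and -0.53 in females (adjusted p = 1 and 0.342).

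Markers of other cells were not called in cKO against control either. Astrocyte markers summed to 512 to 565 subtracted FPKM in cKO males against 585 to 661 in control males, without overlap, and to 396 to 443 in cKO females against 411 to 448 in control females. Microglia markers summed to 74.98 to 82.0 in cKO males against 79.1 to 85.0 in control males, and to 50.5 to 56.5 in cKO females against 59.1 to 63.5 in control females, where the groups did not overlap. Neuronal markers summed to 393 to 451 in cKO males against 413 to 443 in control males, and to 581 to 606 in cKO females against 542 to 588 in control females. The part of these shifts in the values of the members was not tested.

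The larger contrast in these genes was between the sexes. The comparison of control males with control females uses no cKO library in its means. Here 6 of 33 members were higher in control males and 0 were lower, where 6.54 percent of all genes were called higher and 5.16 percent lower. All 6 were mature markers. Groups did not overlap for 10 mature markers and C1ql1 with control males above, where 21 percent of all genes did so, and for Vcan with control males below, where 27.5 percent did so. All 24 mature markers had a positive log2 difference, with a median of 0.41 against -0.067 over all genes tested. The 4 tested precursor markers had a median of -0.093 and the 5 transcription factors a median of 0.27, with 0 called in either.

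Mbp, the basic protein that compacts myelin on its cytoplasmic side, had 79.1, 43.9 and 69.1 subtracted FPKM in cKO males, 65.7, 75.8 and 79.2 in control males, 32.0, 37.5 and 30.9 in cKO females and 39.4, 38.6 and 31.8 in control females. Every male library exceeded every female library. Control males averaged 73.6 ± 7.06 against 36.6 ± 4.17 in control females (SD, n = 3 each; log2 0.998, 0.58 to 1.42, adjusted p = 0.00961, limma). The genotypes overlapped in each sex, with cKO male 2 as the lowest male.

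Mobp, another basic protein of compact myelin, had 229, 126 and 304 subtracted FPKM in cKO males, 179, 230.3 and 228 in control males, 88.0, 81.7 and 67.3 in cKO females and 106, 88.2 and 76.4 in control females. Its lowest male value of 126 lay above its highest female value of 106. The log2 difference between control males and control females was 1.23 (0.64 to 1.83, adjusted p = 0.0176). Ermn, an actin-binding protein of the outer lip of the sheath, had 58.3, 41.0 and 65.2 subtracted FPKM in cKO males, 39.3, 55.3 and 47.8 in control males, 31.4, 30.0 and 21.7 in cKO females and 28.7, 24.7 and 23.4 in control females. Again no male overlapped a female, and control males were higher by 0.87 on the log2 scale (0.44 to 1.30, adjusted p = 0.0188).

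Bcas1, a marker of early myelinating cells, had 51.9, 29.9 and 37.2 subtracted FPKM in cKO males, 40.7, 47.0 and 46.9 in control males, 25.4, 28.3 and 11.9 in cKO females and 26.9, 13.0 and 20.4 in control females. Its margin between the sexes was narrow, since cKO male 2 at 29.9 lay just above cKO female 2 at 28.3. The log2 difference between control males and control females was 1.20 (0.45 to 1.95, adjusted p = 0.0455). Anln, whose values are given above, was higher in control males by 0.67 (0.35 to 0.9999, adjusted p = 0.0177) and Car2 by 0.49 (0.23 to 0.75, adjusted p = 0.0231).

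Promoters are shown for called members with and without matches to lineage motifs, for Cnp, where both motifs occur, and for Pdgfra, the flat precursor gene. The sequences are from RefSeq on GRCm38.p6 and cover 200 bases, from position -250 to -51 before the start of the gene, for 22 of the 34 members that matched the promoter table. Capitals mark ACAAAG or ACAATG on either strand, the core bound by SOX factors, and CTGGCAC or CTGGTAC on either strand, the core bound by MYRF. The matches to the 2 motifs share no base in the windows shown.
Mobp, plus strand, chr9:120149492-120149691: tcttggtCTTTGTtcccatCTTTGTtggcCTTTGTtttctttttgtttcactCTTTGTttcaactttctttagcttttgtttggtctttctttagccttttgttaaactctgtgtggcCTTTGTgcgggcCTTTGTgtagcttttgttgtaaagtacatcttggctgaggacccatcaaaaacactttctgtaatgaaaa
Ermn, minus strand, chr2:58052915-58053114: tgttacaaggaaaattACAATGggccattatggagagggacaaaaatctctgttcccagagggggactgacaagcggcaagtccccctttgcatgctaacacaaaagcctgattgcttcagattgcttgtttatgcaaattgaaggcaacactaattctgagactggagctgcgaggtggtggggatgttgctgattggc
Anln, minus strand, chr9:22389257-22389456: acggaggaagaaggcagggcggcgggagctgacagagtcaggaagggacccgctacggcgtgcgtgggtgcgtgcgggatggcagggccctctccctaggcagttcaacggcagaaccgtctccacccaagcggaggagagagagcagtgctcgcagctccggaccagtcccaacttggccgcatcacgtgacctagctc
Cnp, plus strand, chr11:100574689-100574888: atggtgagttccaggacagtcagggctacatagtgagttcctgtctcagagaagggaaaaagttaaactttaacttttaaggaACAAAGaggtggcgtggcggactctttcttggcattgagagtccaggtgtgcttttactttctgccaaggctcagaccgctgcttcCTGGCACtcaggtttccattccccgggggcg
Pdgfra, plus strand, chr5:75152001-75152200: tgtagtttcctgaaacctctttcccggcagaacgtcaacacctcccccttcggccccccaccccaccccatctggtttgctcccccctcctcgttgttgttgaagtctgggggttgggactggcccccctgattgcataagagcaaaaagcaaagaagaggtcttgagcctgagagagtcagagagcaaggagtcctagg

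The window of Mobp held 6 matches to the SOX core, those of Ermn and Cnp 1 each and those of Anln and Pdgfra 0. The MYRF core occurred 1 time in Cnp. Over the 26 promoters of the 22 matched members, 8 held the SOX core (7 members) and 4 held the MYRF core (4 members), and Cnp and Mag held both. Of 32851 promoters of the same length in the table, 21.2 percent held the SOX core and 4.83 percent the MYRF core. A match is a description of these letters, and binding was not measured here.

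Mal, a proteolipid that sorts myelin membrane, had 167, 101 and 168 subtracted FPKM in cKO males, 112, 139 and 137 in control males, 82.9, 87.3 and 69.0 in cKO females and 91.7, 88.2 and 63.4 in control females. All males exceeded all females, but the log2 difference between control males and control females of 0.68 did not pass (adjusted p = 0.0613). Aspa had a difference of 0.74 and missed the threshold likewise (adjusted p = 0.0604). In all, 8 members, Mbp, Mobp, Mal, Ermn, Bcas1, Hapln2, Aspa and Car2, had every male above every female, and all 8 are mature markers. The share of all genes with this pattern over the 12 libraries was not computed. Among controls alone, 21 percent of all genes had males above females without overlap. The count of 8 therefore cannot set the members apart from other genes.

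Pdgfra and Gpr17 did not show this difference after subtraction. Pdgfra had a log2 difference of -0.095 between control males and control females (-0.25 to 0.060, adjusted p = 0.431) and Gpr17 of -0.092 (-0.35 to 0.17, adjusted p = 0.658). The upper ends of both intervals, 0.060 and 0.17, lay below the lower ends of those of Mbp (0.58) and Mobp (0.64). The log2 differences of the 24 mature markers ran from 0.040 to 1.23 with 6 called, so these 2 genes do not stand for all of them. Without subtraction of the background, the log2 difference of Pdgfra was 0.35 and that of Gpr17 0.47, and neither was called. Vcan had -0.20 and C1ql1 0.36, with wider intervals that reached from -0.74 to 0.34 and from -0.72 to 1.44.

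**Figure D2:**
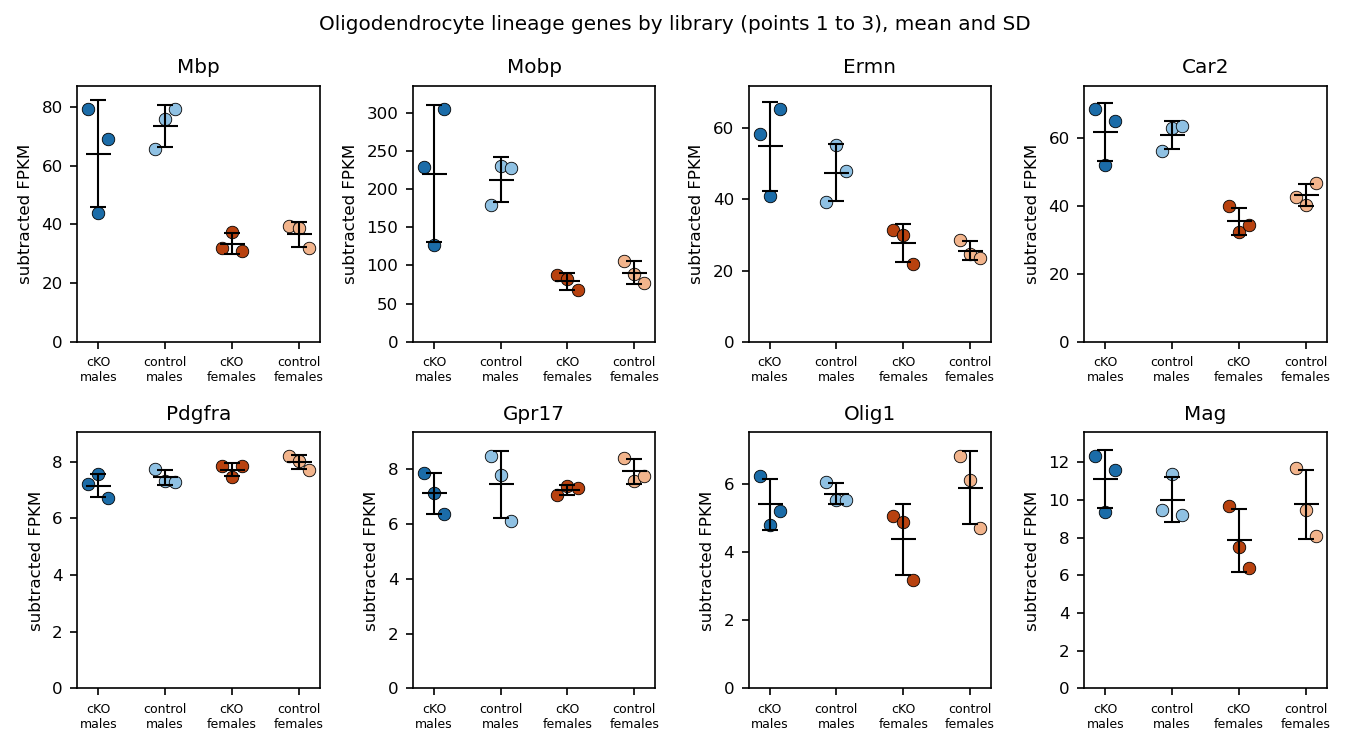
Subtracted FPKM of 8 members in each library, with points for replicates 1 to 3 and bars for the mean and SD of a group (n = 3). Every male lies above every female for Mbp, Mobp, Ermn and Car2, whereas Pdgfra spans 6.72 to 8.21 over all 12 libraries and Mag and Olig1 overlap between the sexes.

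The sums over the members show the same split by library. The 24 mature markers summed to 572 to 995 subtracted FPKM in cKO males, 704 to 882 in control males, 387 to 502 in cKO females and 405 to 569 in control females. The 5 precursor markers summed to 15.7 to 19.1 in cKO males, 16.8 to 20.5 in control males, 16.1 to 19.2 in cKO females and 19.1 to 20.8 in control females. The ratio of mature to precursor sums ran from 34.3 to 48.8 in control males and from 21.2 to 27.3 in control females, without overlap. The ratio of Mbp to Pdgfra within a library ran from 8.48 to 10.9 in control males and from 4.13 to 4.81 in control females. This ratio ran from 5.81 in cKO male 2 to 11.0 in cKO males and from 3.94 to 5.02 in cKO females. No scaling between libraries can move the ratio, but the background that was taken off can. Mbp, Mobp and Mal together made up 47.4 to 54.4 percent of the mature sum in males and 41.1 to 45.0 percent in females.

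The background of the libraries moved with sex as well. It lay between 0.00664 and 0.0276 in control males and between 0.0863 and 0.602 in control females, so background and sex cannot be told apart among controls. cKO male 2 had a background of 0.286, above those of control females 1 and 2. It was the lowest male in 20 of the 24 mature markers, and it was above all 6 females in 8 of them. Its mature sum was 572, against 569 in control female 1, whose background was 0.180. Without Mbp, Mobp and Mal the order turned, with 301 in cKO male 2 and 332 in control female 1. The part of the background in the difference between the sexes was not tested.

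**Figure D3:**
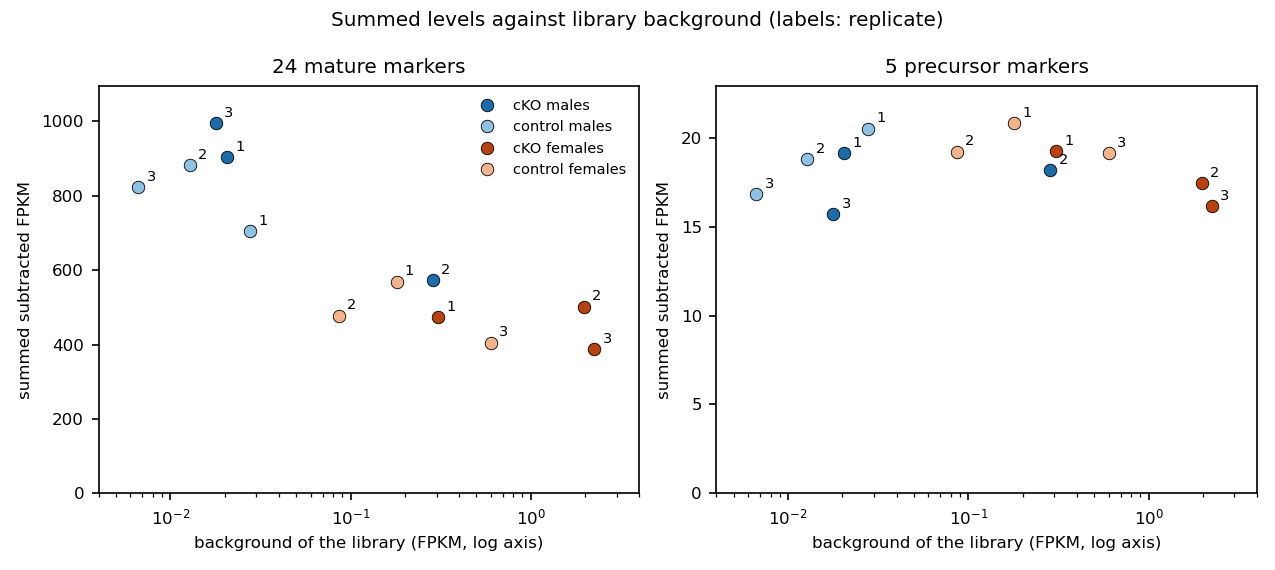
Summed subtracted FPKM of the 24 mature markers (left) and the 5 precursor markers (right) against the background of each library on a log axis, with replicate numbers beside the points. The mature sum reaches 995 in cKO male 3 and 387 in cKO female 3, while the precursor sum stays between 15.7 and 20.8.

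The call depended on processing and on single libraries. Without the subtraction or without scaling, 0 of the 6 passed, and with no filter on low values 1 did, although the log2 difference of Mbp ranged from 0.77 to 1.71 over all alternatives. In these 3 fits the share of all genes called in either direction was 0.18, 0.102 and 1.40 percent, against 11.7 percent with the settings used here. The count of members called was 1 without control male 2, control male 3 or control female 2, where 4.84, 3.51 and 6.68 percent of all genes were called. It was 2 without control female 3 (6.17 percent of all genes) and 4 to 8 without any other library (4.94 to 18.6 percent). In each fit with 0 to 2 members called, calls over all genes were also fewer. Mbp passed in all 12 fits that leave out 1 library (adjusted p = 0.00122 to 0.0499), Mobp and Ermn in 8, Car2 in 8, Anln in 7 and Bcas1 in 4.

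Markers of other cells also differed between control males and control females, where 6.54 percent of all genes were called higher and 5.16 percent lower. All 8 astrocyte markers had positive log2 differences, of which 3 were higher in control males: Gfap (0.94, adjusted p = 0.00469), the water channel gene Aqp4 (0.53, 0.0102) and the glycolytic enzyme gene Aldoc (0.74, 0.00328). Of 7 microglia markers 2 were higher, among them Aif1 (0.79, 0.0180). All 8 neuronal markers had negative differences and 4 were lower in control males, among them Wfs1 of CA1 neurons (-0.88, 0.00261) and the synaptic vesicle gene Syt1 (-0.67, 0.00776). Summed levels were 413 to 443 subtracted FPKM in control males against 542 to 588 in control females for neurons, 585 to 661 in control males against 411 to 448 in control females for astrocytes, and 79.1 to 85.0 in control males against 59.1 to 63.5 in control females for microglia. The part of these shifts in the result for the myelin genes was not tested.

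Sums of other cell types were closer or overlapped between control males and control females. Endothelial and mural markers summed to 35.3 to 43.3 in control males and 36.9 to 39.5 in control females, with 0 of 7 called. Thalamus and habenula markers summed to 8.98 to 10.1 in control males and 8.79 to 8.84 in control females, without overlap but with 0 of 3 tested called. Markers of Schwann cells, which myelinate peripheral nerve, summed to 3.91 to 6.99 in control males and 4.41 to 4.55 in control females, with 1 or 2 of 5 genes at 0 in each of these libraries. Choroid plexus markers ran from 1241 to 3633 in control males and from 11.4 to 5136 in control females, and the largest sum belonged to control female 2. Car2 and Trf are also made by choroid plexus, and the part of its RNA in their values was not tested.

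Other genes of the lineage differed in mixed directions between control males and control females. Over all genes, 6.54 percent were called higher and 5.16 percent lower in this comparison. Of 19 tested mature oligodendrocyte genes outside the members, 3 were higher in control males: the connexin gene Gjc3 (8.88 ± 0.596 subtracted FPKM in control males against 6.05 ± 0.802 in control females, SD, n = 3 each; adjusted p = 0.0368), the septin gene Sept4 (34.5 ± 2.35 in control males against 21.7 ± 2.71 in control females, 0.0316) and Dbndd2 (14.1 ± 2.63 in control males against 7.86 ± 0.382 in control females, 0.0425). The median log2 difference of these 19 was 0.49. Of 9 tested precursor genes, the proteoglycan gene Cspg5 was higher (0.37, adjusted p = 0.0343) and the matrix glycoprotein gene Tnr was lower (-0.86, 0.00654). Of 4 tested genes of newly formed oligodendrocytes, 0 were called.

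Among 15 genes of axoglial contact, made by neurons or by glia, 8 were lower in control males, including the paranodal genes Cntn1 (-0.57, adjusted p = 0.00822) and Cntnap1 (-0.49, 0.00741) and the juxtaparanodal potassium channel genes Kcna1 (-0.67, 0.00851) and Kcna2 (-0.56, 0.0110). Of 24 tested genes of cholesterol and myelin lipid synthesis, 1 was higher, Pmvk of the mevalonate pathway (0.38, 0.0299), and 3 were lower, among them Ugcg, which makes glucosylceramide (-0.34, 0.0233). Of 15 tested regulators of differentiation, Qk, an RNA-binding protein that myelination requires in mice, was higher (0.62, 0.0122), as was Zfp24 (0.43, 0.0162), while Zeb2 (-0.36, 0.0184) and Smarca4 (-0.50, 0.0109) were lower. Of 17 tested genes of signals to the lineage, the receptors Igf1r (-0.46, 0.0316) and Ntrk3 (-0.68, 0.00654) were lower. These counts stand beside 6.54 percent of all genes called higher and 5.16 percent called lower in control males.

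The same contrast among cKO libraries, added after seeing the data, set cKO males against cKO females. A total of 11 of 33 members were higher in cKO males and 0 lower, where 16.6 percent of all genes were called higher and 21.9 percent lower, so that the sexes differed in 38.5 percent of all genes. The 11 were Nkx6-2, Mbp, Mobp, Mag, Mal, Ermn, Ppp1r14a, Hapln2, Anln, Aspa and Car2. Mbp had a log2 difference of 0.89 (0.47 to 1.31, adjusted p = 0.00900), Mobp of 1.39 (0.79 to 1.99, 0.00698) and Car2 of 0.79 (0.53 to 1.05, 0.00350). Pdgfra had -0.10 (-0.26 to 0.052, 0.255) and Gpr17 -0.028 (-0.29 to 0.23, 0.862).

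The background was 0.0178 to 0.286 in cKO males and 0.305 to 2.25 in cKO females. Without cKO females 2 and 3, which leaves cKO female 1 as the only cKO female and takes its spread from the other groups, 0 members and 0.549 percent of all genes were called. The count of members was 5 without cKO male 1, cKO male 3 or cKO female 3, where 16.4, 12.9 and 18.6 percent of all genes were called. It was 7 without cKO female 2 (20.2 percent of all genes) and 17 without cKO male 2 (35.4 percent). The astrocyte sum was 512 to 565 in cKO males and 396 to 443 in cKO females, and the neuronal sum 393 to 451 in cKO males and 581 to 606 in cKO females; their part in the result was not tested.

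**Figure D4:**
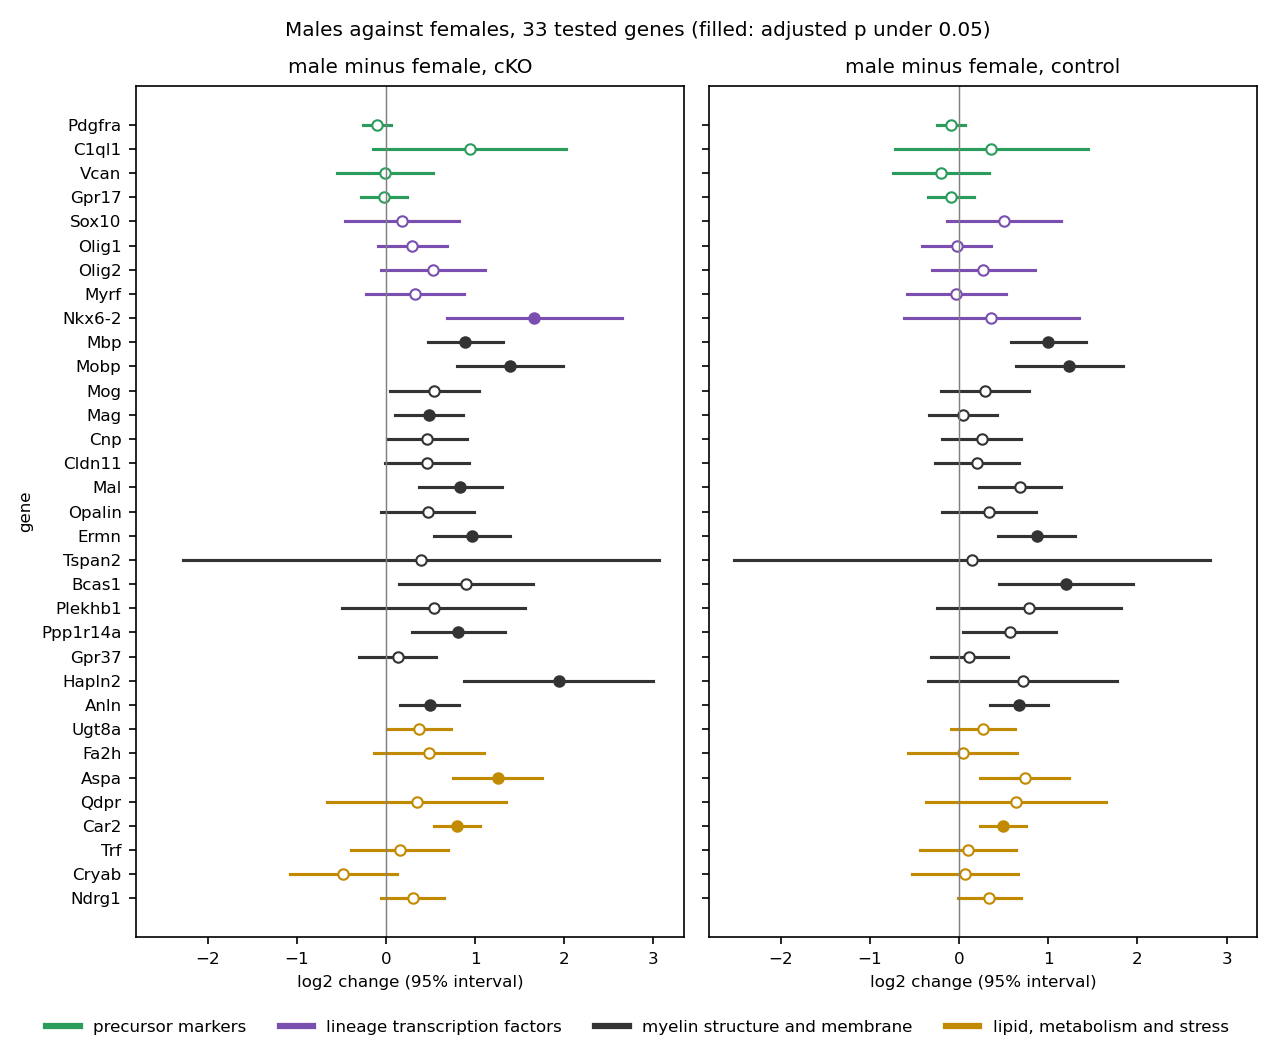
Log2 difference of males against females with its 95% interval for the 33 tested members, in cKO libraries on the left and control libraries on the right, with filled points at an adjusted p under 0.05. The filled points, 11 among cKO and 6 among control libraries, all lie to the right of 0, and Pdgfra and Gpr17 lie close to 0 in both panels.

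The remaining mature markers are given by their range. Mog and Cnp, an outer-surface protein and an enzyme of uncompacted myelin, ran over all 12 libraries from 5.65 to 14.2 and from 13.3 to 26.9 subtracted FPKM. Cldn11, which forms the tight junctions of the sheath, ran from 23.1 to 47.3, Opalin from 6.37 to 13.98, Gpr37 from 7.82 to 13.3 and Plekhb1 from 9.58 to 49.4. Ugt8a, which makes galactosylceramide, ran from 11.4 to 19.3, the iron carrier gene Trf from 15.2 to 30.1, the small heat shock protein gene Cryab from 2.85 to 8.33 and Ndrg1 from 5.43 to 9.77. None of these was called in any of the comparisons above, and the highest value was in a male library for all of them but Cryab.

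Tspan2, a tetraspanin of the myelin sheath, was split between libraries in a way that followed no group. It had 2.58, 13.2 and 18.6 subtracted FPKM in cKO males, 1.92, 16.8 and 17.2 in control males, 1.58, 12.7 and 12.4 in cKO females and 20.0, 16.3 and 1.09 in control females. In each of the 4 groups 1 library was low, at 1.09 to 2.58, and the other libraries stood at 12.4 or more. Its main transcript, which carried 96.3 percent of its deposited FPKM, was low in the same 4 libraries. Tspan2 overlaps 3 other annotated genes, and their part in this split was not tested. Qdpr, which regenerates tetrahydrobiopterin, was high in cKO male 3 (30.3) and control male 1 (25.0) and ran from 6.43 to 15.5 elsewhere.

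Mbp is made from upstream starts, which give the Golli proteins also found outside myelin, and from downstream starts, which give the classic myelin isoforms. The 12 transcripts of downstream start summed to 284 ± 96.9 deposited FPKM in cKO males, 330.2 ± 27.5 in control males, 99.3 ± 29.6 in cKO females and 153 ± 28.3 in control females (SD, n = 3 each). The 4 transcripts of upstream start summed to 18.2 ± 2.73 in cKO males, 19.9 ± 1.54 in control males, 13.0 ± 1.03 in cKO females and 16.4 ± 4.42 in control females. This deposited scale keeps the background and divides by the length of each transcript, not by the union of exons. Its values are therefore not comparable with the subtracted FPKM of Mbp above. On this scale control males were at 302 to 357 and control females at 121 to 173 for the downstream starts, without overlap. For the upstream starts, control males were at 18.6 to 21.6 and control females at 13.7 to 21.5, which overlap.

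For Pdgfra and Mag the division of reads among transcripts was less steady than the gene totals. The full-length Pdgfra transcript of 6549 bases had 10.2 to 13.8 deposited FPKM in 9 libraries and at most 0.607 in cKO female 2, control female 3 and control male 1, where another transcript of 6834 bases took its place at 6.13 to 12.3. A 12-exon Mag transcript of 1826 bases was at 11.2 to 14.02 in cKO males 1 and 3, control male 1 and control female 1 and listed at 0 in the other 8 libraries. Summed deposited FPKM of Pdgfra spread from 11.4 to 26.4, more than the subtracted level per exon union given above.

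**Figure D5:**
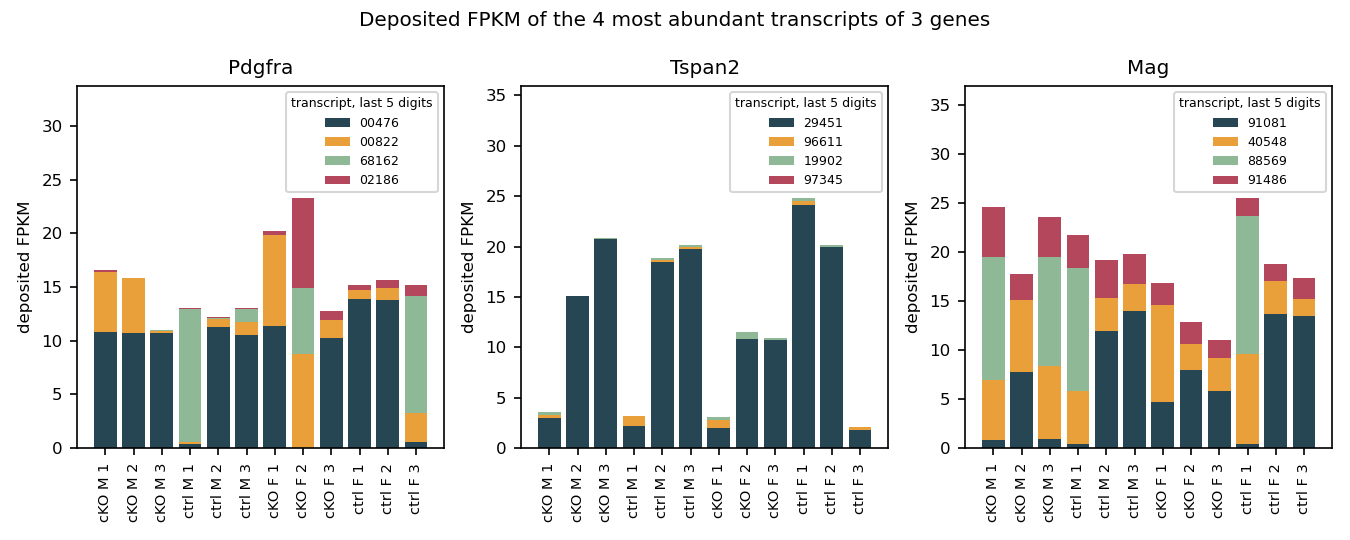
Deposited FPKM of the 4 most abundant transcripts of Pdgfra, Tspan2 and Mag stacked by library, with cKO left of control in each sex. The main Tspan2 transcript is low in 1 library of each group, and for Pdgfra and Mag different transcripts carry the signal in different libraries.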

How the data were processed

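Total RNA of the hippocampus was sequenced in 12 libraries after ribosomal RNA reduction, per the labels' protocols. Alignment with HISAT2 2.0.4 to GRCm38.p6 and quantification with StringTie are given in the submitters' processing notes. The authors deposited FPKM and coverage (mean reads per base) for 137862 transcripts per library, with no read counts. The sources used here name no trimming, strand setting or annotation release.

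Coverage times length was summed per gene and divided by the union of its exons in GENCODE M21. From each library its median over 1459 receptor genes was taken off, and negative results became 0. Median-of-ratios scaling used protein-coding genes averaging 5 or more. The filter required an average of 1 and 3 libraries reaching 1. limma 3.58.1 (R 4.3.3; trend and robust) fitted 4 group means on log2(value + 0.5) with 8 residual degrees of freedom; p-values were two-sided and adjusted over 15087 genes by Benjamini-Hochberg, with a threshold of 0.05. The fit was tested on simulated data with independent noise and no library background. That test therefore does not cover effects of the background or of values set to 0. Tables were made with Python 3.11.15 and pandas 2.3.3. A gene below the background of its library is set to 0, which limits low genes; depth ran from 1.16 to 8.64 Gb of mapped sequence per library.

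All members are named. Values per library are given for precursors, transcription factors, called members and the 6 mature markers of smallest p in cKO against control. Genes of 7 lists of the lineage and 7 lists of cell type markers were to be named where called, otherwise at most 4 per list; of the called neuronal and axoglial genes only examples are named, and some other called genes are not reported here. Members, lists and the background subtraction were chosen with earlier results of these data known. Alternatives were other subtraction, scaling, pseudocount and filter settings, a replicate block and leaving out libraries.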

Additional observations from a re-analysis of the deposited data

How the results depend on the processing

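In cKO against control, the count of members called was 0 under every alternative tried in males, and in females under all but 1 of them. Leaving out each library in turn gave 0 to 6 in females, 0 to 3 for the mean of both sexes and 0 to 2 for their difference, with the highest counts without cKO female 1, when 38.7, 29.7 and 19.5 percent of all genes were called in these comparisons. The median log2 change of mature markers ran over these fits from -0.22 to 0.081 in females, and that of precursors in the difference of effects from -0.021 (without control male 3) to 0.21. In controls the count ran from 1 to 8, and in cKO males against cKO females from 5 to 17. Without background subtraction the median of all genes was 0.35 in females, 0.11 in males and 0.25 for the mean. For all genes it was -0.18 for the difference, -0.36 between control sexes and -0.60 between cKO sexes. The mature median was -0.87 in females, -0.53 for the mean and 0.76 for the difference. Between control sexes the mature median was 1.02 and between cKO sexes 1.71. The precursor median was -0.41 in females, -0.45 for the mean and 0.36 for the difference. Between control sexes the precursor median was 0.35, between cKO sexes 0.39 and in males -0.22. In that fit 0 members were called between control sexes (0.18 percent of all genes) and 26 between cKO sexes (67.2 percent). Without scaling the median of all genes was -0.46 in females, -0.23 for the mean, 0.45 for the difference and 0.42 between cKO sexes. In the same order the mature median was -0.59, -0.30, 0.61 and 0.93, and the precursor median -0.56, -0.31, 0.53 and 0.37. With this setting 0 members were called between control sexes (0.102 percent of all genes) and 18 between cKO sexes (36.1 percent). Quantile normalization gave a precursor median of -0.30 in females. Without cKO females 2 and 3 the precursor median was 0.036 in females, -0.019 for the difference and -0.17 between cKO sexes, where the count was 0 (0.549 percent of all genes). With no filter 1 member was called between control sexes (1.40 percent), and with a mean of at least 5 the count between cKO sexes was 7 (42 percent). Gpr17 turned direction between cKO males and cKO females without subtraction (log2 1.14, adjusted p = 0.00619). The causes were not tested.

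Replicate numbers are shared between genotypes. The labels do not say that they mark pairs, so libraries of the same number were not treated as pairs. Deviations from the group means, correlated over genes, had r = 0.15, -0.30 and 0.38 in females and 0.040, -0.097 and 0.20 in males for the same number. These values cannot decide whether mice were paired, because female libraries of different number ran from -0.51 to 0.48. With the replicate block, 0 members were called in each cKO comparison, where 0 percent of all genes were called. These counts therefore cannot set the members apart from other genes. The medians of mature markers were -0.099 in females and 0.033 in males, the same as without the block. Each group holds every replicate number, so the block cannot move the log2 changes, and the equal medians are no separate check. Low genes in libraries of high background, such as C1ql1, Nkx6-2 and Hapln2, were at or near 0 after subtraction; whether depth set that background was not tested.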
